A study of Mus musculus with 6 samples.

Results

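The synaptic vesicle and exocytosis machinery was taken as 42 of the 18193 genes named on the array, those for the proteins that dock, prime and fuse secretory vesicles, and its RNA was compared between the carotid bodies of inbred A/J and DBA/2J mice. Every Affymetrix probe set whose platform annotation named 1 of these genes alone was used, which gave 111 of 45101 probe sets. The carotid body sits where the common carotid artery divides, and its type I (glomus) cells respond to a fall in blood oxygen by releasing transmitter onto the endings of the carotid sinus nerve. Both strains were untreated males from the Jackson Laboratory at 28 days of age. The 3 A/J arrays held RNA pooled from 20, 21 and 19 mice (40, 42 and 38 carotid bodies), and the 3 DBA/2J arrays RNA from 19, 18 and 19 mice (38, 36 and 38). The arrays of a strain therefore show the spread between pools and not between animals. In such whole-organ RNA, fewer cells of a type and less RNA per cell cannot be told apart.

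In regulated exocytosis a v-SNARE on the vesicle (a VAMP) pairs with t-SNAREs on the plasma membrane (a syntaxin and a SNAP25 family protein) and pulls the membranes together. Rab3 and Rab27 GTPases and their effectors bring vesicles to the membrane, Munc13 and CAPS proteins prime them, complexins bind the assembled SNAREs, and synaptotagmins and Doc2 proteins sense the calcium that triggers fusion. Glomus cells use this machinery to release catecholamines from dense-core vesicles, and the nerve fibres that reach the organ use it too.

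The arrays carried linear signals scaled to a trimmed mean of 500, with array medians from 163.6 to 183. Each log2 difference is the DBA/2J mean less the A/J mean of log2(signal + 16), which understates the change of dim probe sets. They were fitted with limma over the 27022 probe sets in the upper 60% by mean value, and a probe set was called at a Benjamini-Hochberg adjusted p under 0.05 over all of them. Of the 111 probe sets 93 were kept, from 41 genes. Sv2c, a vesicle glycoprotein, had only a dim probe set (66.2, 46.1 and 56.6 in A/J and 56.1, 58.8 and 54.8 in DBA/2J) and was not tested. Where a gene had several kept probe sets, that with the highest mean stood for the gene. Levels of different genes were combined only in ratios within an array and in summed signals of gene lists.

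A minority of the exocytosis genes differed between the strains, mostly with higher signal in DBA/2J. Rab27a, Vamp1, Doc2b, Syt7, Cplx1 and Rph3al rose, Vamp3 fell, and 34 genes were not called. The 6 that rose are 14.6% of the 41 genes, where 2.17% of all 13006 genes were called higher. The 1 that fell is 2.44%, where 1.6% of all genes were called lower. By probe set 10 of 93 were called (10.8%), beside 3.27% of all probe sets. The median log2 difference of the 41 genes was 0.22, beside 0.03 for all genes, and 28 of them (68.3%) lay above 0, beside 53.0% of all genes. The signals of the strains did not overlap in 12 of the 41 genes (29.3%), beside 22.7% of all genes. Single arrays moved the count of 6 higher genes. It was 3 without any 1 of the A/J arrays or without DBA/2J array 1, 5 without DBA/2J array 3, and 6 without DBA/2J array 2. In the fit without DBA/2J array 2, Rab3c took the place of Rph3al among the higher genes. Rab27a, Vamp1, Doc2b and Vamp3 were called in all 6 of these fits.

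**Figure D1:**
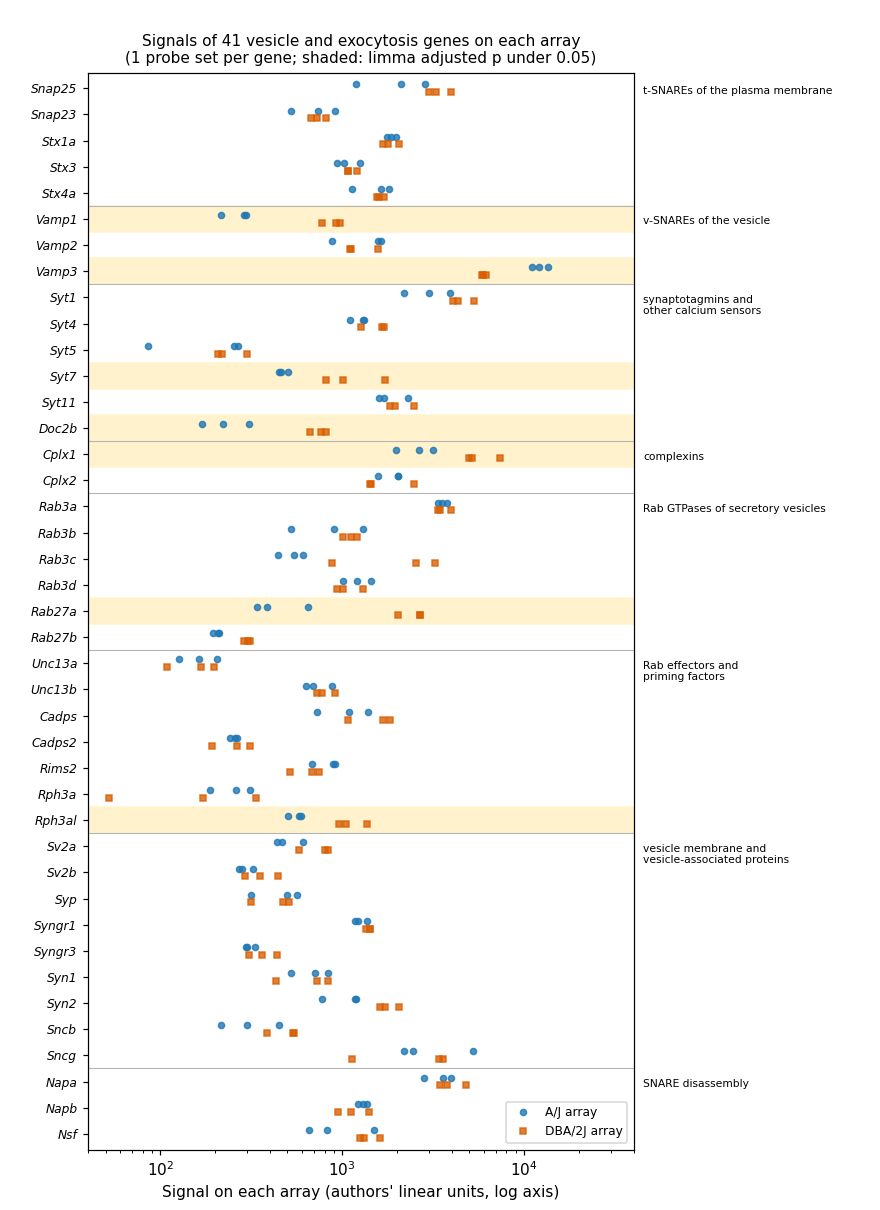
Signal of the 41 genes on each array (log axis, linear units as deposited), 1 probe set per gene and ordered by role, with circles for the 3 A/J and squares for the 3 DBA/2J arrays and the 7 called genes shaded. In the 6 genes that rose all squares lie to the right of the circles, and in Vamp3 they lie to the left.

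The stretches before the annotated starts of Rab27a, Vamp1, Cplx1 and Rph3al are shown so that a reader can see what they share. Those of Doc2b and Syt7, which rose too, are not shown. The stretches shown come from RefSeq (build GRCm38.p6), which gave windows for 32 of the 42 members, 41 windows in all. The 250 bases before each start were searched on both strands for the E-box CAGCTG bound by basic helix-loop-helix factors, the cores ACGTG and GCGTG bound by hypoxia-inducible factors, the cAMP response element TGACGTCA, TTCAGCACC, the left part of the RE1 element bound by the repressor REST, and the GC box GGGCGG of many promoters. These motifs were chosen with the values known. Capitals mark the matches other than the GC box, and each sequence runs 5′ to 3′ on the strand of its gene. Syn1 (synapsin I), which was not called, is shown as the member window that held the RE1 part.
Rab27a first start, chr9:73044560-73044809, plus strand: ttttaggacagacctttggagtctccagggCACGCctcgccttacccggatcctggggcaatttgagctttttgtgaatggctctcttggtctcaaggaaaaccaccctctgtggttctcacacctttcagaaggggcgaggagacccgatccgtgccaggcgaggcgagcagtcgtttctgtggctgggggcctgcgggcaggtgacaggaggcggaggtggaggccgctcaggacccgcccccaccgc
Rab27a second start, chr9:73063898-73064147, plus strand: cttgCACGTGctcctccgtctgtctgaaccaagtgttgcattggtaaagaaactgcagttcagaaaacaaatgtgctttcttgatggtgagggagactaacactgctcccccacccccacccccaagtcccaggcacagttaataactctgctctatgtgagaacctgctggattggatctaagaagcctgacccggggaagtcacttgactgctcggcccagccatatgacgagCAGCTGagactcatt
Vamp1, chr6:125215331-125215580, plus strand: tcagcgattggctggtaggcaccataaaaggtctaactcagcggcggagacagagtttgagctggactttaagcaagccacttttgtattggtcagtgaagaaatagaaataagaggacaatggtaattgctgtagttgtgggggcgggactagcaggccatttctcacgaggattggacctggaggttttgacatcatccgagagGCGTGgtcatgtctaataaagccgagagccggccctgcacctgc
Cplx1, chr5:108550028-108550277, minus strand: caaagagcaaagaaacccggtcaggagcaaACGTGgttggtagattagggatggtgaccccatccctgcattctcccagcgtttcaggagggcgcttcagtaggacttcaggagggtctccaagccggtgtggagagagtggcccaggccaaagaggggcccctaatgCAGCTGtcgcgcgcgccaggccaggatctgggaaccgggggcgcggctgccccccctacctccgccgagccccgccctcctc
Rph3al, chr11:75925892-75926141, minus strand: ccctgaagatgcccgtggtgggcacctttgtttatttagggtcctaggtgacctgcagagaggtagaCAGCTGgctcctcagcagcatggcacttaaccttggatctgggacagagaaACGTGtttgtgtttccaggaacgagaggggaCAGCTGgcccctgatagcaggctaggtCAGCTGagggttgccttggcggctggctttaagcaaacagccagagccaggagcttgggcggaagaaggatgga
Syn1, chrX:20920919-20921168, minus strand: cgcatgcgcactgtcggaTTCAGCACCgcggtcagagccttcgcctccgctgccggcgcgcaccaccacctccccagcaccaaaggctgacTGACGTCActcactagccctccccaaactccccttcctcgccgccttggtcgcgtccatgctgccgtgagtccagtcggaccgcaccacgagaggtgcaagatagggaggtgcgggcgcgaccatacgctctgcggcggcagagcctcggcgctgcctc
The E-box lay 15 bases before the second start of Rab27a, 82 bases before Cplx1, and 183, 101 and 74 bases before Rph3al. It was in 11 of the 41 member windows (26.8%) and in 13% of all 32851 windows of that length. Members outside the called genes held it too, among them Syt1, Rab3a, Rab3c and Stx1a. ACGTG was in 12 member windows (29.3%, 16.6% of all), and GCGTG in 20 (48.8%, 28.2% of all). The GC box was in 24 (58.5%, 32.7% of all), so the member windows held more of this general promoter motif too. In the second Rab27a window ACGTG overlaps its own match on the other strand. Among the member windows Syn1 alone held the RE1 part, 232 bases before its start, and the cAMP element, 159 bases before it, which occur in 0.301% and 1.55% of all windows. A match describes letters and is no evidence of binding.

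Of the 6 Rab GTPases, Rab27a was called. Rab27a, which docks dense-core and lysosome-related granules at the membrane, had signals of 387.2, 648.4 and 338.9 in A/J and 2672.6, 2022.7 and 2665.5 in DBA/2J. The strains were far apart, with every DBA/2J array above every A/J array. The means were 458 ± 167 for A/J against 2454 ± 373 for DBA/2J (SD over 3 arrays, n = 3), and the log2 difference was 2.42 (SE 0.26, limma adjusted p = 0.00147), the largest of the 41 genes. The other kept probe set of Rab27a, 1454438_at, gave -0.03, with 122.9, 145.2 and 103.6 in A/J and 131.6, 125.1 and 104 in DBA/2J, so the call rests on 1429123_at. The mean of both gave 1.20 (adjusted p = 0.0133). Its relative Rab27b, which serves secretory granules as well, had 208.2, 195.6 and 209.7 in A/J and 301.4, 289.6 and 311.1 in DBA/2J. Those values did not overlap, but the log2 difference of 0.52 (95% interval 0.09 to 0.95) was not called (adjusted p = 0.22).

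Rab3c, a Rab3 form of neurons and secretory cells, had 442.9, 609.9 and 543.9 in A/J and 2530.8, 875 and 3254.4 in DBA/2J. DBA/2J array 2 lay far below the other DBA/2J arrays and still above all A/J arrays. The log2 difference of 1.84 (SE 0.43) was not called (limma adjusted p = 0.054), and without DBA/2J array 2 it was 2.41 (adjusted p = 0.000593). Rab3c was called with the mean of its probe sets (1.32, adjusted p = 0.00732) and with array weights (adjusted p = 0.00167). Array weights called 3007 probe sets in all, where the main fit called 883. In a choice made after seeing the data, Rab3c was also called with p adjusted over 1 probe set per gene (adjusted p = 0.0468). Of 23 type I cell markers, 10 had their lowest and 6 their highest DBA/2J value on array 2, and their part in the value was not tested. A second Rab3c probe set, 1449494_at, was called at 1.55 (adjusted p = 0.0106), with 296.3, 191.6 and 217.6 in A/J and 829.6, 786.9 and 542.2 in DBA/2J. The remaining kept probe sets of Rab3c gave 1.13 and 0.76, and the strains were apart on all 4.

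The other Rab3 genes were not called. Rab3a, the main Rab3 of synapses, had 3543.1, 3353.8 and 3787.9 in A/J and 3358.5, 3972.8 and 3442.2 in DBA/2J. The strains overlapped closely, and the log2 difference was 0.01 (95% interval -0.35 to 0.37). For Rab3b, found in endocrine cells, it was 0.38 (interval -0.31 to 1.06), and 0.0372 without A/J array 2 and 0.68 without A/J array 3. For Rab3d, the form of exocrine and mast cell granules, it was -0.17 (interval -0.65 to 0.31), and its 4 kept probe sets were all below 0.

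Of the 7 Rab effectors and priming factors, Rph3al was called. Rph3al (Noc2), an effector of Rab3 and Rab27 on dense-core vesicles, had 505, 579.6 and 592.7 in A/J and 964.2, 1367.1 and 1054.8 in DBA/2J. Each DBA/2J array was above each A/J array, with a log2 difference of 0.98 (SE 0.20, limma adjusted p = 0.0344). The call was lost without any 1 of the 6 arrays (adjusted p from 0.0507 to 0.129). Another Rph3al probe set, 1431695_at, pointed the other way at -0.96 (adjusted p = 0.313), with 277.5, 167.2 and 162.1 in A/J and 193.7, 73.2 and 53.7 in DBA/2J, and the mean of both gave 0.01 (adjusted p = 0.987).

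Rph3a (rabphilin), a related effector at synapses, had 311.8, 186.5 and 259.5 in A/J and 171.2, 334.7 and 52.1 in DBA/2J. The DBA/2J arrays spread over a wide range, and the log2 difference of -0.68 had a 95% interval of -1.84 to 0.49. It was -0.04 without DBA/2J array 3 and -1.22 without DBA/2J array 2. Cadps, the CAPS protein that primes dense-core vesicles, had 1087.5, 731 and 1383.2 in A/J and 1072.5, 1666.2 and 1841.1 in DBA/2J. The strains overlapped, and its difference was 0.52 (interval -0.13 to 1.17). Its relative Cadps2 was at -0.01 (interval -0.52 to 0.50). The Munc13 priming factors Unc13a and Unc13b were at -0.07 (interval -0.72 to 0.58) and 0.14 (interval -0.32 to 0.60). Rims2, a scaffold of release sites, was at -0.35 (interval -0.85 to 0.14), with all 4 kept probe sets below 0 and none called.

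The 3 vesicle SNAREs differed from each other. Vamp1 (synaptobrevin 1) had 287.5, 215.2 and 296.4 in A/J and 777.7, 922.8 and 973.2 in DBA/2J. No array overlapped, and the means were 266 ± 44.5 for A/J against 891 ± 102 for DBA/2J (SD over 3 arrays, n = 3). The log2 difference was 1.69 (SE 0.21, limma adjusted p = 0.00271) and stayed called without each array in turn, at 1.55 to 1.78. The call rests on 1421863_at, the only kept Vamp1 probe set. The other, 1421862_a_at, was too dim to be kept, with 18.1, 9.6 and 14.7 in A/J and 57, 9.7 and 11.9 in DBA/2J. Vamp2, the v-SNARE of most synaptic vesicles, had 883.4, 1564.5 and 1638.1 in A/J and 1115.5, 1579.8 and 1098.5 in DBA/2J. Its strains overlapped, with a difference of -0.07 (95% interval -0.69 to 0.54).

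Vamp3 (cellubrevin), a v-SNARE of recycling endosomes in many cell types, had 13453.8, 12042.2 and 11023.3 in A/J and 6186.7, 5905.7 and 5847.5 in DBA/2J on probe set 1437708_x_at. All DBA/2J values were below all A/J values, with a log2 difference of -1.02 (SE 0.14, limma adjusted p = 0.00564). The other 4 kept Vamp3 probe sets gave -0.29, -0.25, -0.07 and 0.06, with overlapping strains and no call. Affymetrix uses the suffix _x_at for probe sets that may match other transcripts. With suffixed probe sets left out, a choice made after seeing the data, the Vamp3 difference was -0.07 (adjusted p = 0.939), and with the mean of its probe sets it was -0.31 (adjusted p = 0.353).

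None of the 5 plasma membrane SNARE genes was called. Snap25, the t-SNARE of neurons and neuroendocrine cells, had 2100.5, 1193.3 and 2863.7 in A/J and 3005.6, 3277.5 and 3987.1 in DBA/2J. The strains did not overlap, and A/J array 2 lay far below the other A/J arrays. The log2 difference was 0.81 (SE 0.30, limma adjusted p = 0.222), and without A/J array 2 it was 0.47. A second kept Snap25 probe set, 1447763_at, gave 0.28 (adjusted p = 0.817) with overlapping strains, and the mean of both gave 0.55 (adjusted p = 0.429). Of 19 neuron markers, 11 had their lowest and 4 their highest A/J value on array 2, and their part in the Snap25 value was not tested. Stx1a, the syntaxin of neurons and endocrine cells, had 1964.8, 1760.3 and 1856.2 in A/J and 1776.8, 2051.4 and 1670.2 in DBA/2J. Its strains overlapped, with a difference of -0.03 (95% interval -0.41 to 0.36). The more widely expressed Snap23, Stx3 and Stx4a were at 0.06 (interval -0.47 to 0.58), 0.07 (interval -0.35 to 0.50) and 0.11 (interval -0.37 to 0.59).

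The 5 synaptotagmins and Doc2b, grouped as calcium sensors though not each of them is one, had a median log2 difference of 0.49, and Doc2b and Syt7 were called. All 6 lay above 0, but Syt5 was at -0.12 without A/J array 2, and Syt11 was at -0.15 without suffixed probe sets and -0.0226 with array weights. Doc2b, a high-affinity sensor linked to spontaneous release, had 168.5, 306.3 and 220.1 in A/J and 666.1, 760.1 and 813.4 in DBA/2J. The strains were well apart, and the difference was 1.66 (SE 0.24, limma adjusted p = 0.00674), from 1.46 to 1.86 without each array in turn. The second Doc2b probe set, 1420666_at, gave 0.09 (adjusted p = 0.925), and the mean of both gave 0.87 (adjusted p = 0.0322). Syt7, a high-affinity synaptotagmin of dense-core vesicle release, had 451.6, 501.9 and 459.2 in A/J and 1010.2, 1726.2 and 811.9 in DBA/2J. The A/J arrays lay close together and the DBA/2J arrays spread widely above them. The difference of 1.23 (SE 0.27) passed narrowly (adjusted p = 0.0469), and the call was lost without any 1 of the A/J arrays or without DBA/2J array 1 (adjusted p from 0.0997 to 0.16). Its other kept probe sets gave 1.57, 0.70 and -0.26, and none was called.

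Syt1, the fast calcium sensor of synaptic vesicles, had 2999.3, 2186.2 and 3896.1 in A/J and 4079.8, 4346.7 and 5331 in DBA/2J. Each DBA/2J value was above each A/J value, but the log2 difference of 0.63 (SE 0.23) was not called (limma adjusted p = 0.222). A second Syt1 probe set, 1438282_at, was called at 1.25 (adjusted p = 0.0241), with 209.8, 122.9 and 162.4 in A/J and 359.5, 421.5 and 437.5 in DBA/2J, and the mean of the Syt1 probe sets gave 0.86 (adjusted p = 0.0352). Syt4 and Syt11, synaptotagmins that do not act as fast calcium sensors, were at 0.30 (95% interval -0.14 to 0.74) and 0.17 (interval -0.30 to 0.65). Syt5 was at 0.36 (interval -0.51 to 1.23).

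Of the 2 complexins, Cplx1 was called. Cplx1, which clamps and then helps SNARE-driven fusion, had 2644.4, 1980.1 and 3140.6 in A/J and 5161.1, 7373.7 and 4992.8 in DBA/2J. The strains were apart, with a log2 difference of 1.17 (SE 0.23, limma adjusted p = 0.0265). Probe set 1417746_at of Cplx1 was called too, at 1.75 (adjusted p = 0.00468), with 849.6, 616.2 and 1084 in A/J and 2656.6, 3325.1 and 2541.1 in DBA/2J. The third gave 0.98, and on all 3 the strains did not overlap. The call of the brightest was lost without any 1 of the A/J arrays or without DBA/2J array 1 (adjusted p from 0.0501 to 0.094), with differences from 0.99 to 1.32. Cplx2 had 1577.6, 2025 and 2037 in A/J and 1441.6, 2494.6 and 1420.1 in DBA/2J. Its strains overlapped, with a difference of -0.12 (95% interval -0.68 to 0.45).

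**Figure D2:**
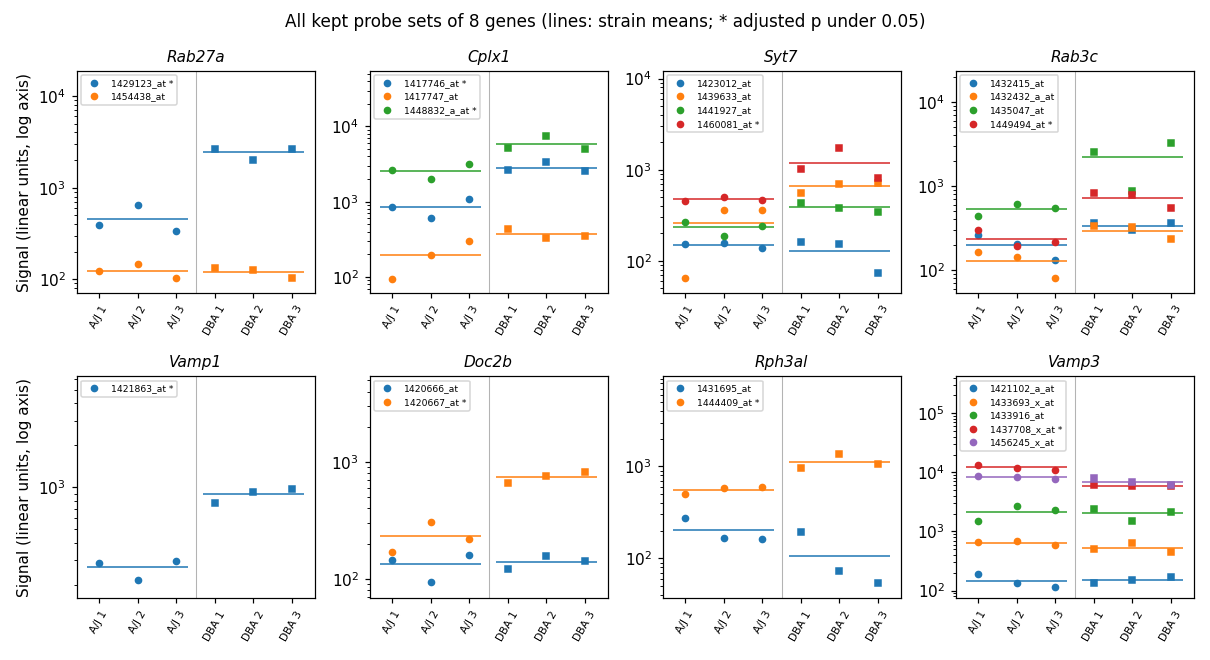
Signal on each array (log axis) of the kept probe sets of the 7 called genes and of Rab3c, with circles for A/J, squares for DBA/2J (DBA on the axis), a colour per probe set, lines at the strain means and an asterisk at an adjusted p under 0.05. All probe sets of Cplx1 and Rab3c are higher in DBA/2J, while in Rab27a, Doc2b, Rph3al, Syt7 and Vamp3 a single probe set is called among several.

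None of the 9 measured vesicle membrane and vesicle-associated genes was called by limma. Syn2, a synapsin that tethers vesicles to each other, had 1170.5, 772.9 and 1191.1 in A/J and 1603.7, 1726.1 and 2056.2 in DBA/2J. The strains did not overlap, and the log2 difference was 0.79 (SE 0.22, adjusted p = 0.108). The kept Syn2 probe sets 1435511_at and 1449030_at gave 0.85 and 0.83 and were not called. Another bright Syn2 probe set, 1460230_at, gave -0.04. Without DBA/2J array 3 that probe set had the highest mean and stood for Syn2, at 0.10, while 1428460_at then gave 0.69. Syn1 was at -0.07 (95% interval -0.71 to 0.57). Sv2a and Sv2b, glycoproteins of secretory vesicles, were at 0.54 (interval 0.04 to 1.05, adjusted p = 0.286) and 0.28 (interval -0.21 to 0.77). Synaptophysin (Syp), a major membrane protein of small synaptic vesicles, had 315.6, 560.7 and 497 in A/J and 315.1, 471.2 and 506.5 in DBA/2J. Its strains overlapped, with a difference of -0.07 (interval -0.69 to 0.55). The other Syp probe set, 1456249_x_at, had 650.6, 199.3 and 424.3 in A/J and 161, 115 and 145.4 in DBA/2J. It was lower on each DBA/2J array, at -1.36, and was not called (adjusted p = 0.106).

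Syngr1 and Syngr3, synaptogyrins related to synaptophysin, were at 0.17 (95% interval -0.22 to 0.55) and 0.23 (interval -0.24 to 0.69). Sncb (beta-synuclein) was at 0.63 (interval -0.01 to 1.26). Sncg (gamma-synuclein), made by sensory neurons and fat cells among others, had 2181.2, 5241.8 and 2445.7 in A/J and 3596.7, 1136.9 and 3412.9 in DBA/2J. A/J array 2 was the highest and DBA/2J array 2 the lowest of all, and the log2 difference of -0.33 became 0.06 without the former and 0.21 without the latter. Of the genes that take the SNARE complex apart, Nsf, the ATPase, was at 0.56 (interval -0.10 to 1.23) and its adaptor Napa at 0.22 (interval -0.23 to 0.67). Napb, the adaptor typical of brain, was at -0.18 (interval -0.64 to 0.27). All 5 kept Napb probe sets lay below 0, the lowest at -0.73 with 691.8, 738.5 and 630.4 in A/J and 360.1, 362 and 515.3 in DBA/2J (limma adjusted p = 0.117).

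**Figure D3:**
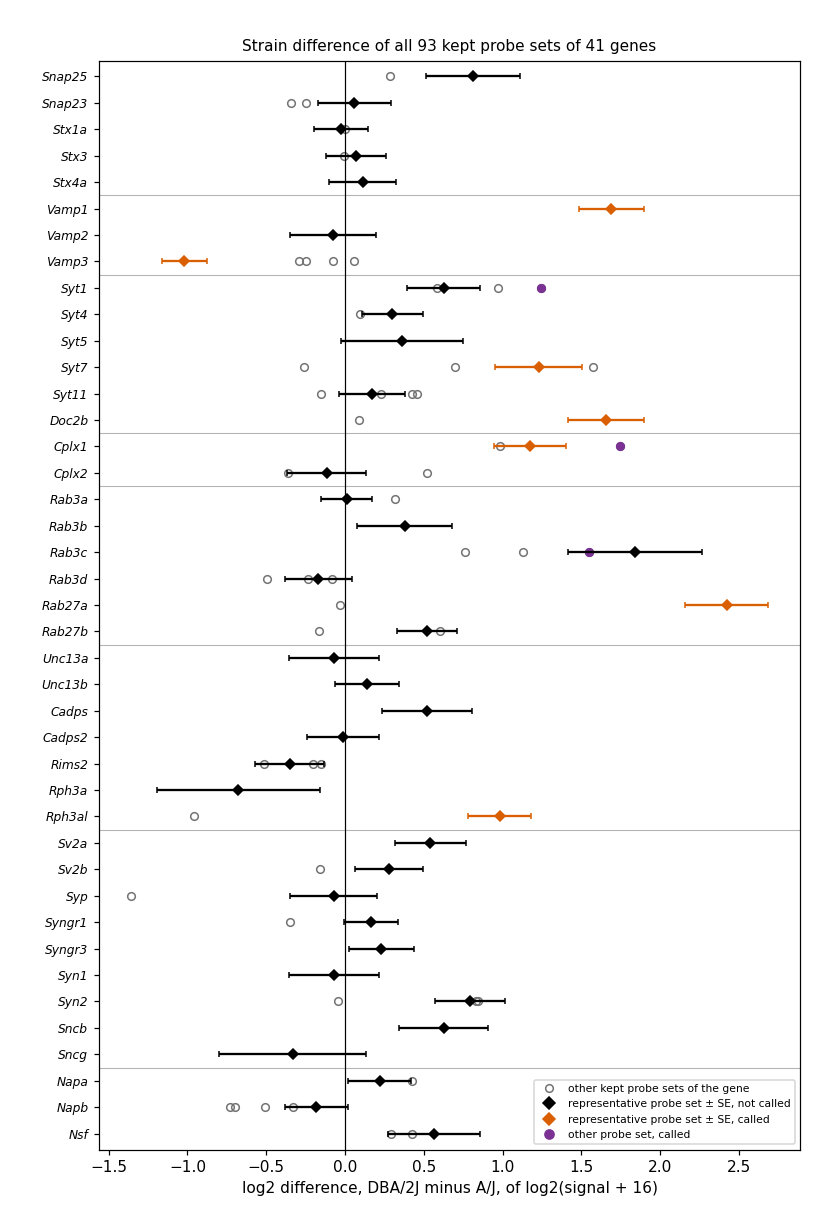
Log2 difference, DBA/2J minus A/J, of the 93 kept probe sets by gene and role, with diamonds and SE bars for the probe set that stood for each gene, circles for the others and called probe sets in colour. Of the diamonds 28 lie above 0 and 13 below, and several genes have probe sets far from each other.

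Probe sets of the same gene often disagreed. Of 26 genes with several kept probe sets, 13 had all on the same side of 0 and 13 had both signs. At least 1 probe set was called in 9 genes, the 7 above with Syt1 and Rab3c. The rule stated by the series asks for 6 of 9 array pairs past 1.5-fold and a p under 0.05, taken here as the unadjusted limma p. Under it 7 genes were higher (17.1%, beside 5.83% of all genes) and 1 lower (2.44%, beside 4.92%), with Rab3c added to the 7 called genes.

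Ratios of related genes within an array hardly change when a whole array is scaled by a common factor, and 6 pairs were compared. Quantile normalization did move their strain differences, for Vamp2 over Vamp3 from 0.94 to 0.81 and for Napb over Napa from -0.40 to -0.47. The log2 ratio of Snap25 over Snap23 was 1.43 ± 0.25 for A/J against 2.19 ± 0.13 for DBA/2J (SD, n = 3), a change of 0.75 (exact permutation p = 0.10, two-sided). The changes were 0.94 for Vamp2 over Vamp3, 0.45 for Syt1 over Syt11 and -0.40 for Napb over Napa. The change for Vamp2 over Vamp3 rests on the suffixed Vamp3 probe set and was -0.00139 without suffixed probe sets. The strains did not overlap in these 4 pairs as first computed, which gives the smallest exact p that 3 against 3 arrays allow, 0.10, or 0.15 adjusted over the 6 pairs, so none could pass. For Rab3a over Rab3d (0.18, exact permutation p = 0.6) and Stx1a over Stx4a (-0.14, exact permutation p = 0.7) the strains overlapped.

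Among 67 measured genes of 91 others in the exocytosis pathway, 3 rose (4.48%, beside 2.17% of all genes) and 1 fell (1.49%, beside 1.6%). At an unadjusted limma p under 0.05 were 14 (20.9%, beside 17.1% of all genes), and the median log2 difference was 0.10. Syt14, a synaptotagmin relative, had 120.4, 110.9 and 107.7 in A/J and 468.4, 339.5 and 579.5 in DBA/2J, a difference of 1.86 (limma adjusted p = 0.00369). Synpr (synaptoporin), a relative of synaptophysin, rose by 1.41 on the log2 scale (adjusted p = 0.0154), and Sytl4 (granuphilin), which docks granules through Rab27, rose by 1.29 (adjusted p = 0.0358). Sypl2, a synaptophysin relative of skeletal muscle, was at -2.22 (adjusted p = 0.0431). Of 27 measured genes of vesicle recycling by endocytosis, Snap91 (AP180), a clathrin adaptor of synapses, rose by 1.40 (adjusted p = 0.02), 0 fell, 8 had an unadjusted p under 0.05 (29.6%), and the median was -0.01. Without 1 array in turn, 1 to 6 of the other exocytosis genes and 0 to 2 of the recycling genes were called.

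Markers of several cell types moved with the strain. Over all genes 2.17% were called higher and 1.6% lower, and 17.1% had an unadjusted limma p under 0.05. Of 22 measured type I cell markers 11 rose (50%) and 0 fell, with the smallest adjusted p for Insm1 (log2 difference 2.93), Scg2 (1.71) and Chgb (1.60). An unadjusted limma p under 0.05 was found for 17 (77.3%). The summed signal of the 23 with a probe set ran between 57372 and 65025.4 for A/J, and between 107547.1 and 116016.5 for DBA/2J. The labelled tissue thus had signal for many of these markers in both strains, but not for all. Gata3 was near the floor at 9.3 to 19.1. Slc18a1 was dim in A/J only, with 96.3, 103 and 124, against 981, 431.3 and 1490.2 in DBA/2J. It was among the markers that rose, at 2.83 (limma adjusted p = 0.00503). Drd2 was dim in both strains, with 217.2, 118.6 and 163.4 in A/J and 141.7, 156.9 and 191.2 in DBA/2J. Of 18 measured neuron markers 0 were called by limma. At an unadjusted limma p under 0.05 were 5 of them (27.8%, beside 17.1% of all genes). The sums of the neuron list overlapped, between 29064.6 and 39930.9 for A/J, and between 33341.4 and 41390 for DBA/2J. Mast cells also release granules, and of 10 markers Cma1 rose and Hdc fell (10% each), while 5 (50%) had an unadjusted limma p under 0.05. The mast cell sums lay between 5991.3 and 6175.5 for A/J, and between 8517.5 and 12359.6 for DBA/2J. Of 12 type II and Schwann cell markers only Ugt8a was called, and it fell (8.33%). However, 7 of the 12 (58.3%) had an unadjusted limma p under 0.05, only 2 lay above 0, and the median log2 difference was -0.56. Their sums lay between 53292.8 and 64242.7 for A/J, and between 38923.7 and 43766.6 for DBA/2J. All 14 measured skeletal muscle markers fell, with sums between 50138.1 and 122255.1 for A/J, and between 1148.5 and 2595.2 for DBA/2J. Fabp4 and Ucp1 fell among 8 adipocyte markers (25%), of which 4 (50%) had an unadjusted limma p under 0.05. The adipocyte sums lay between 49630.7 and 71414.6 for A/J, and between 25620.9 and 42053.8 for DBA/2J. Smr2 fell among 2 salivary markers (50%), and Slc26a4 rose among 5 thyroid and parathyroid markers (20%). The macrophage and endothelium lists had 0 calls by limma of 10 each, with 3 (30%) and 2 (20%) at an unadjusted p under 0.05. The part of any of these cell types in the values of the exocytosis genes was not tested.

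**Figure D4:**
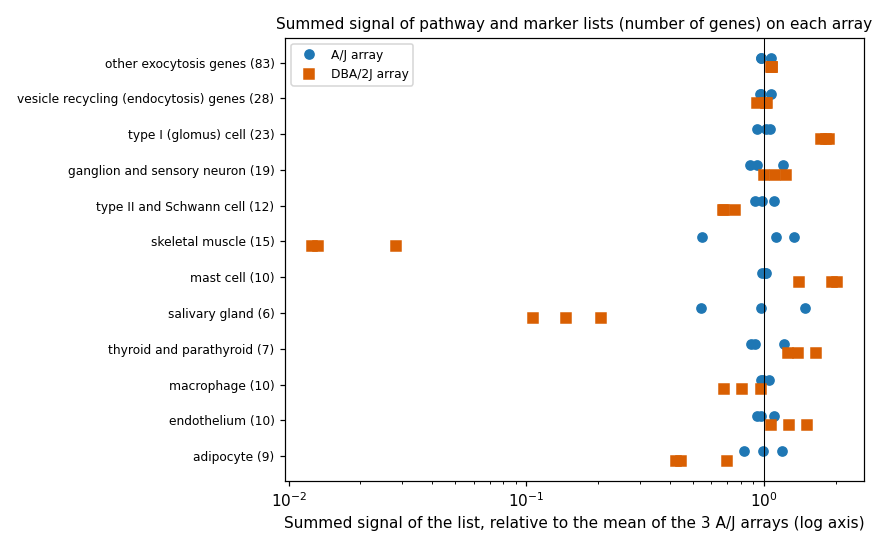
Summed signal of each pathway and marker list on each array relative to the mean of the A/J arrays (log axis), with circles for A/J, squares for DBA/2J and the number of genes with a probe set in brackets. The mean of the DBA/2J sums was 1.81 times that of A/J for type I cell markers, 1.12 times for neuron markers and 1.07 times for other exocytosis genes, and 0.018 times for skeletal muscle.

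Doc2b and Rph3al, both higher in DBA/2J, lie next to each other on chromosome 11 with 1 annotated gene between them. Of the measured genes nearest to the pair, Myo1c, Crk, Ywhae, Rflnb, Vps53 and Tlcd3a were not called, with log2 differences from -0.27 to 0.70. For Rab27a, Vamp1, Vamp3, Syt7, Cplx1 and Rab3c, none of the 6 nearest measured genes (3 on each side) was called, and those of Rab27a ran from -0.37 to 0.42. These neighbours were looked up after the values were seen.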

How the data were processed

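RNA of pooled carotid bodies was labelled with the small-sample method of Affymetrix and hybridised to Mouse 430 2.0 arrays, per the labels' protocols. The deposited values are linear intensity signals, which the authors scaled to a trimmed mean of 500. The software that computed them: not given in the sources used here. Of 45101 probe sets, 34958 named 1 gene in GEO's platform annotation, 932 several and 9211 none, and symbols were updated through RefSeq tables. The 64 controls were dropped.

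Values were fitted in R 4.3.3 with limma 3.58.1 (lmFit, eBayes with an intensity trend, two-sided, no covariate), and the procedure was tested on simulated data. Intervals are 95% intervals of that fit. With 3 arrays in each strain their number limits the precision, and p-values measure the spread between pools. All 42 members were named. From each pathway list called genes were named up to 10, and from each marker list up to 3, with Slc18a1 added for its dim A/J signal. The members and lists were chosen with earlier results of these data known. Alternatives covered the scaling, pseudocounts of 1 and 64, no filter or the upper 40%, the trend, array weights, the mean of a gene's probe sets, each array left out, a replicate block and the rule of the series. Adjustment over 1 probe set per gene and leaving out suffixed probe sets were added after seeing the data.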

Additional observations from a re-analysis of the deposited data

Results flagged for a closer look

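A probe set of Stx3, 1425530_a_at, was among the 18 too dim to be kept, and it differed between the strains. Its signals were 65.9, 8.6 and 3.5 in A/J and 248.6, 312.4 and 293.8 in DBA/2J, so the strains did not overlap. With no filter its log2 difference was 3.14 (limma adjusted p = 0.0212), a size that depends on the pseudocount because the A/J values are low. It was the only 1 of those 18 that passed with no filter. Another dim Stx3 probe set, 1426151_a_at, gave 0.99 (adjusted p = 0.312), and the kept Stx3 probe sets gave 0.07 and -0.01.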

How the results depend on the processing

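The median over the member genes measured in a fit stayed above 0 under every alternative for which it was computed. Some alternatives measured fewer than the 41 genes. Leaving out each array gave 3 to 6 higher member genes, 5 to 10 called member probe sets, 1 to 6 called genes among the other exocytosis genes and 0 to 2 among the recycling genes. Calls over all probe sets ran from 345 to 1338 in these fits. Syt7 was not called after quantile normalization (limma adjusted p = 0.068), with no filter (0.0662), without the trend (0.06), with the mean of its probe sets (0.81, adjusted p = 0.0797) or with the random replicate block. The called other exocytosis genes were 2 with no filter, 2 in the upper 40%, 7 with the mean of probe sets and 12 under the rule of the series. Array weights gave 5 called recycling genes and 19 member probe sets, and the rule of the series gave 3 and 21. Over all 27022 probe sets array weights called 3007 and the rule of the series 2725, where the main fit called 883. Lower member genes were 0 with the mean of probe sets and 0 without suffixed probe sets.

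Some uncalled differences near 0 changed sign. Rab3a was -0.00302 after median scaling. Array weights gave -0.0803 for Rab3a, -0.0529 for Snap23, -0.0226 for Syt11, 0.0135 for Cadps2 and 0.17 for Sncg. The mean of probe sets gave -0.18 for Snap23, 0.0128 for Cplx2 and -0.0906 for Syngr1. Without suffixed probe sets Stx1a was 0.00234 and Syt11 -0.15. Over the fits without 1 array the differences ran from -0.15 to 0.24 for Snap23, from -0.11 to 0.0385 for Stx1a, from -0.0185 to 0.19 for Stx3, from -0.0893 to 0.24 for Stx4a, from -0.36 to 0.0826 for Vamp2, from -0.12 to 0.62 for Syt5, from -0.56 to 0.0227 for Cplx2, from -0.0649 to 0.0558 for Rab3a, from -0.23 to 0.15 for Unc13a, from -0.15 to 0.17 for Cadps2, from -0.31 to 0.13 for Syp, from -0.26 to 0.21 for Syn1 and from -0.62 to 0.21 for Sncg. Those of Syn2, Napb and Cplx2 switched probe set in 1 such fit each. Further uncalled values ran from 0.28 to 0.75 for Cadps, 0.41 to 0.83 for Syt1, 0.39 to 0.89 for Sncb, 0.32 to 0.90 for Nsf and -0.48 to -0.20 for Rims2. The ratio of Stx1a over Stx4a ran from -0.31 to 0.10, and that of Vamp2 over Vamp3 was -0.00139 without suffixed probe sets. The cause of these changes was not tested.

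A number in the sample titles is shared by 2 pairs of arrays, whose deviations correlated at -0.26 and 0.0351 (other pairs -0.264 to 0.202). The labels do not say what the number marks. Correlations of so few arrays cannot tell whether the pairs share more than a number. A fixed replicate block on it left 1 residual degree of freedom and gave 0 calls over all probe sets, thus 0 higher, 0 lower and 0 called in each list, and it gave 0.0340 for Stx1a, -0.0761 for Stx4a and 0.35 for Syn1. A random replicate block (correlation -0.035) gave 848 called probe sets, where 883 were called without it, and 5 higher member genes, with Syt7 no longer called (limma adjusted p = 0.0508). Dim signal limits Rph3a, Unc13a, Sv2c and the second probe sets of Doc2b and Rab27a.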

Other observations

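Rab27a and Rph3al belong to a group of proteins that act with Rab27, and a list of 12 such effectors and motor partners was written after values had been seen. Of 8 measured, Exph5, Sytl4 and Rph3al rose and Myo5a fell, where 2.17% of all genes were called higher and 1.6% lower. Since the list was written with values in view, its count supports nothing. Exph5 (Slac2-b), a Rab27 effector, had 103.3, 103.7 and 48.5 in A/J and 468.9, 473.8 and 600.5 in DBA/2J. The A/J values were dim, and the size of its log2 difference, 2.44 (limma adjusted p = 0.00227), depends on the pseudocount. Sytl4 had 401.2, 811 and 516.6 in A/J and 1325.3, 1204 and 1609.1 in DBA/2J. Myo5a, the myosin that carries Rab27-bearing organelles along actin, had 686.6, 827.6 and 808.6 in A/J and 326.5, 365.1 and 427.5 in DBA/2J, with a difference of -1.03 (adjusted p = 0.0243). The other kept Myo5a probe sets gave -1.06 (adjusted p = 0.0307) and -0.73 (adjusted p = 0.265). DBA/2J mice are known to carry the dilute coat colour allele of Myo5a. Sytl2 (-0.53), Mlph (0.17), Myrip (0.16) and Rph3a (-0.68) were not called.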
